A study of Homo sapiens with 18 samples.

Results

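The genes of the collagen chains were followed through 18 RNA sequencing libraries of MiaPaCa-2, an established human pancreatic cancer cell line. A gene was taken as a collagen chain gene when its symbol was COL, a number, A and a number, which gave 44 of the 57445 gene identifiers in the count file. The study passed MiaPaCa-2 cells through the sciatic nerve in serial cycles of injection, recovery and growth in culture. Its libraries fell into 6 groups of 3: leaders recovered at passage 1, 2, 3 and 4, laggers recovered at passage 1, and parental cells that were never injected and were grown in vitro. Every group carried the genotype label WT and no added agent was labelled. Passage 2 to 4 leaders descend from earlier leaders, only passage 1 laggers were sequenced, and no never-injected cells taken through the same cycles are among the groups, so injection, recovery and regrowth cannot be told apart. Nothing in the labels says that replicates came from separate animals or cultures, and a p-value here reflects only how far these libraries spread, which may be technical. The host species is not given in the labels.

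Collagens are matrix proteins in which chains wind into a triple helix, and each chain is the product of its own gene. Fibrillar collagens such as types I, III and V build the fibres of connective tissue, and type I is normally assembled from products of COL1A1 and COL1A2 together. Type IV chains form the network of basement membranes, type VI chains form beaded filaments, type XVII spans the membrane of epithelial cells at hemidesmosomes, and type XVIII lies in basement membranes. In pancreatic cancer most fibrillar collagen is known to come from stromal fibroblasts, while the tumour cells are known to make part of the basement membrane chains.

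The libraries held 15113462 to 39373248 counts assigned to genes. Levels are given as CPM, the count relative to the scaled library size, and comparisons between genes use CPM per kb of exon. The mitochondrially encoded genes took 1.95% to 8.57% of gene counts in the 15 injected libraries and 0.472% to 0.873% in the 3 parental libraries. Reads aligned to several places made up 20.2% to 32.6% of entries in injected libraries and 13.9% to 16.4% in parental ones, and their part in the results below was not tested. Passage 3 leader replicate 2, with 24.8% unaligned reads, and lagger replicate 3, with 16.5%, stood apart in that measure. The line's labels were read against its marker genes: KRT8, KRT18, VIM, KRT7, KRT19, CDH1 and EPCAM together held 12600 to 31300 CPM in the injected libraries and 6400 to 8480 CPM in the parental ones, with EPCAM and CDH1 at 0 counts in the parental line. EPCAM was also at 0 in passage 1 and 2 leaders, and CDH1 averaged 8.68 ± 7.01 CPM in passage 1 leaders and at most 3.55 in the other injected groups.

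The collagen transcripts of the injected cells were made up differently from those of the parental line. COL3A1, which encodes the chain of type III collagen, took 15.8% to 37.0% of the summed chain level per length in injected libraries and 0.238% to 0.367% in parental ones. COL1A2 took 2.04% to 16.8% in injected libraries and 0.0170% to 0.0326% in parental ones. COL1A1 went the other way, with 0.0125% to 2.05% in injected libraries and 4.11% to 5.97% in parental ones. COL5A2, a chain of type V collagen, had the highest level per length in all 3 parental libraries at 42.6% to 56.3% of the sum, and held 22.4% to 44.9% in the injected ones. The summed level itself ran from 323 to 513 CPM per kb in passage 1 leaders, 269.7 to 414 in passage 2, 210.6 to 393 in passage 3, 163 to 242 in passage 4, 388 to 588 in laggers and 274 to 409.7 in the parental line. The 3 passage 4 libraries thus lay below all 3 parental ones, and every other injected group overlapped the parental range.

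**Figure D1:**
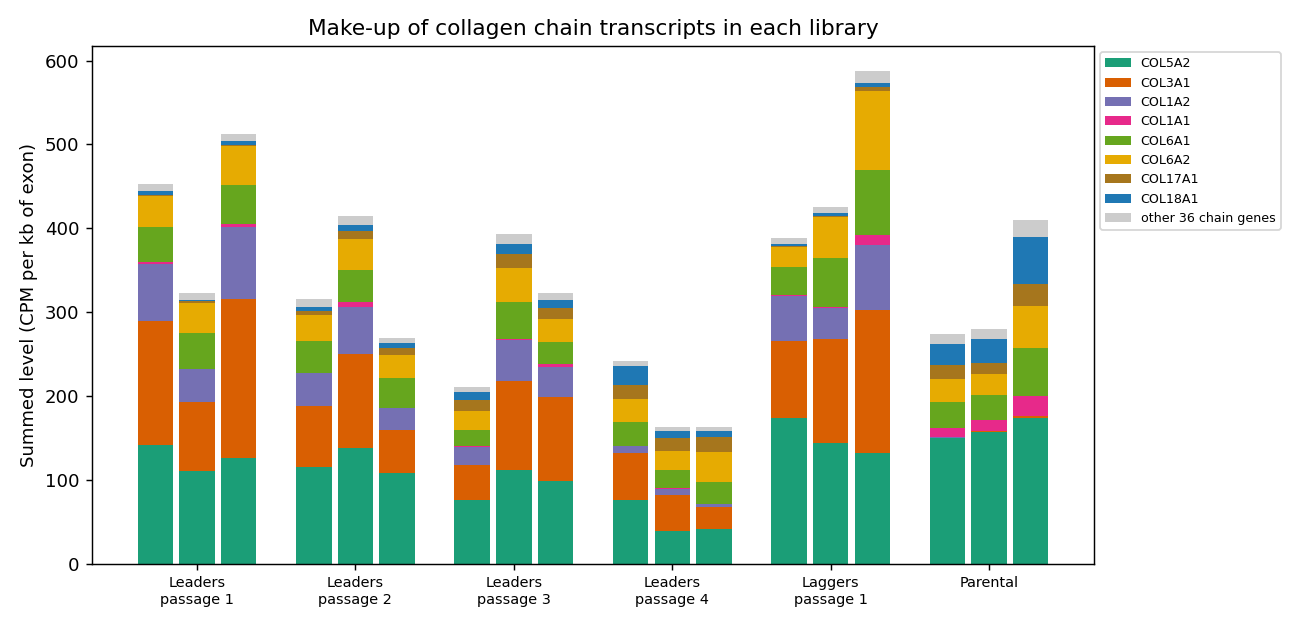
Level of collagen chain genes in each library, in CPM per kb of exon, stacked by gene, with 1 bar per library and 3 bars per group. COL3A1 and COL1A2 fill a visible part of every injected library and none of the parental ones, and passage 4 leaders have the lowest sums, 163 to 242 CPM per kb.

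Of the 44 genes, 22 passed the filter on low counts and were tested, and 4 of the other 22 (COL5A3, COL9A1, COL19A1 and COL22A1) had 0 counts in every library. The 22 tested genes are those with enough counts in some group, so the numbers below are not numbers over all chain genes. With edgeR's quasi-likelihood test at an adjusted p under 0.05, 7 of 22 were called in passage 1 leaders against the parental line, 3 higher and 4 lower, where 45.7% of all tested genes were called (23.2% higher and 22.4% lower). In passage 2 leaders 9 were called, 4 higher and 5 lower, against 29.9% of all tested genes (15.1% higher and 14.8% lower). In passage 3 leaders 10 were called, 4 higher and 6 lower, against 24.6% of all tested genes (13.8% and 10.8%). In passage 4 leaders 10 were called, 3 higher and 7 lower, against 27.7% of all tested genes (14.8% and 12.9%). In laggers 7 were called, 3 higher and 4 lower, against 39.3% of all tested genes (21.5% and 17.8%). The share of chain genes called, 31.8% to 45.5%, was thus below the background in passage 1 leaders and laggers and above it from passage 2 on. This difference in share was not tested and rests on few genes. Leaving out 1 library gave 5 to 11 called genes in passage 2, 3 to 8 in passage 3 and 7 to 10 in passage 4. The median log2 fold change of the 22 against the parental line was -0.30, -1.37, -1.19 and -1.02 in leaders of passages 1 to 4 and -0.05 in laggers, where the median of all tested genes lay between 0 and 0.09.

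**Figure D2:**
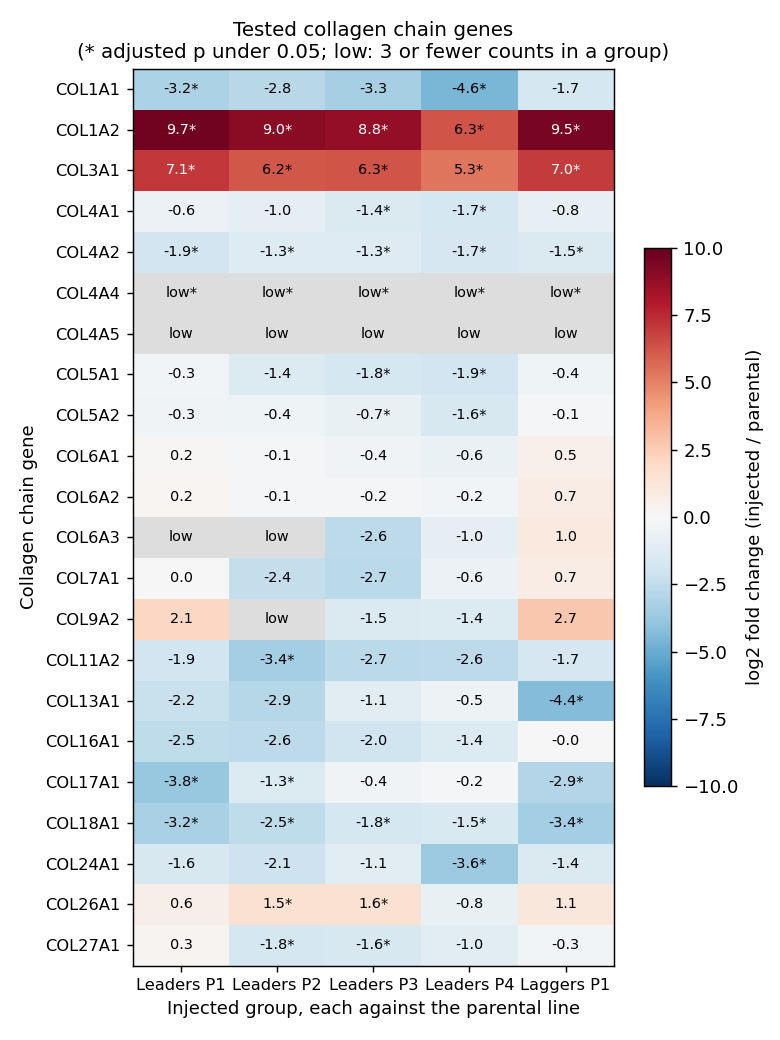
Log2 fold changes of the 22 tested collagen chain genes in each injected group (columns) over the parental line, from edgeR, with an asterisk at an adjusted p under 0.05 and no value where a group holds 3 or fewer counts. COL1A2 and COL3A1 are red in every column and COL4A2 and COL18A1 are blue with an asterisk in every column.

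COL1A2, the gene of the second chain of type I collagen (ENSG00000164692.13, chromosome 7), rose in every injected group. It had 755, 444 and 960 CPM in passage 1 leaders, 441, 636 and 287 in passage 2, 233, 537 and 403 in passage 3, 95.6, 78.9 and 37.1 in passage 4, 603, 414 and 865 in laggers, and 0.995, 0.868 and 0.777 CPM in the parental line. The lowest injected library was thus far above the highest parental one, and within the leaders the 3 passage 4 libraries lay below all 9 earlier ones. The log2 fold change over the parental line was 9.66 ± 0.584 (SE, adjusted p = 3.17e-08) in passage 1 leaders, 9.0 ± 0.571 in passage 2, 8.78 ± 0.566 in passage 3, 6.31 ± 0.515 (adjusted p = 6.82e-07) in passage 4 and 9.46 ± 0.580 in laggers by edgeR. These are changes of 808-fold, 511-fold, 440-fold, 79.2-fold and 705-fold. The parental libraries gave 40, 34 and 21 counts of COL1A2, so it was detected there.

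COL1A1, the gene of the first chain of type I collagen (ENSG00000108821.9, chromosome 17), did not rise with its partner. It had 23.7, 0.396 and 29.6 CPM in passage 1 leaders, 3.96, 58.6 and 6.56 in passage 2, 9.90, 12.1 and 25.1 in passage 3, 1.92, 12.6 and 5.29 in passage 4, 17.7, 9.82 and 118 in laggers, and 110.6, 128 and 240.3 CPM in the parental line. All 12 leader libraries lay below the lowest parental one, and lagger replicate 3 lay within the parental range. COL1A1 fell by 3.15 ± 1.23 on the log2 scale in passage 1 leaders (SE, edgeR adjusted p = 0.0455) and by 4.59 ± 1.32 in passage 4 leaders (adjusted p = 0.0165). Its log2 fold change was -2.79 ± 1.21 in passage 2 leaders (adjusted p = 0.0911), -3.34 ± 1.24 in passage 3 (adjusted p = 0.0596) and -1.72 ± 1.16 in laggers (adjusted p = 0.252), which did not pass. Some alternatives called COL1A1 lower in passage 3, by DESeq2 (adjusted p = 0.0261) and limma-voom (0.0318) among others. In passage 2 limma-voom called it lower (adjusted p = 0.0168), as did edgeR with only the compared groups (0.0348). Other alternatives left both passages uncalled. Replicates of 1 group differed widely in this gene: passage 1 leader replicate 2 gave 8 counts and its 2 companions 643 and 713. The passage 1 call was lost when any of its 6 libraries was left out, with adjusted p up to 0.113, and the passage 4 call was lost without passage 4 replicate 1 or 3, with adjusted p up to 0.0674.

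**Figure D3:**
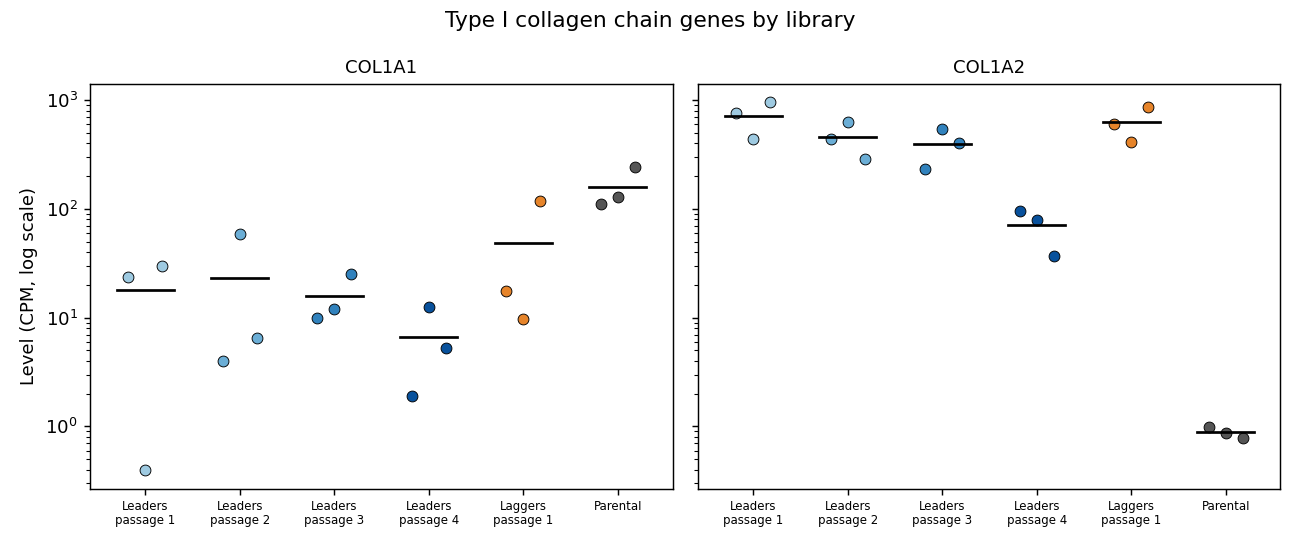
Level of COL1A1 (left) and COL1A2 (right) in each library, in CPM on a log scale, with a point per library and a line at the group mean. COL1A2 is at 37.1 to 960 CPM in injected libraries and under 1 CPM in parental ones, while COL1A1 is highest in the parental line, with lagger replicate 3 reaching 118 CPM.

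The balance of the type I chain genes was read within each library, as the share of COL1A1 among COL1A1 and COL1A2 counts, which does not depend on library size. COL1A1 made up 3.04%, 0.0892% and 2.99% in passage 1 leaders, 0.890%, 8.43% and 2.24% in passage 2, 4.08%, 2.19% and 5.85% in passage 3, 1.97%, 13.8% and 12.5% in passage 4, 2.85%, 2.32% and 12.0% in laggers, and 99.1%, 99.3% and 99.7% in the parental line. Every injected library was on the COL1A2 side and every parental one on the COL1A1 side. The exact 95% binomial intervals, which cover counting error only, were at most 12.4% to 15.3% for passage 4 replicate 2, the injected library with the largest share, and at least 98.8% to 99.4% for parental replicate 1. They do not cover the spread between replicates, which was larger: within passage 1 leaders COL1A2 counts were 31.9, 1120 and 32.4 times those of COL1A1.

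As a log2 ratio of COL1A1 over COL1A2 counts, each plus 0.5, the 15 injected libraries averaged -4.95 ± 1.85 and the 3 parental libraries 7.40 ± 0.755 (SD). The difference was -12.35, with an exact two-sided permutation p of 0.00245, the smallest that 15 against 3 libraries allow, and 0.0196 after adjustment over the 8 balance comparisons. The injected libraries belong to 1 lineage of passages and are not independent of each other. Taken singly, the groups averaged -6.69 ± 2.91, -5.23 ± 1.69, -4.68 ± 0.742 and -3.69 ± 1.68 in leaders of passages 1 to 4 and -4.45 ± 1.38 in laggers. Each of these 5 groups against the parental line gave the smallest exact permutation p that 3 against 3 allow, 0.1. Per exon length, which is 9819 bases for COL1A1 and 11156 for COL1A2, the ratios ran from -9.86 to -2.46 in injected libraries and from 6.96 to 8.42 in parental ones.

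Among the injected groups the balance was compared for 2 pairs, where the smallest exact permutation p that 3 against 3 libraries allow is 0.1, so that neither could pass 0.05. Passage 4 leaders differed from passage 1 leaders by 2.99 on the log2 scale (exact permutation p = 0.3), and by 1.32 without passage 1 leader replicate 2. COL1A2 averaged 70.5 CPM at passage 4 and 719 at passage 1, and COL1A1 averaged 6.61 CPM at passage 4 and 17.9 at passage 1. Passage 1 leaders differed from laggers by -2.23 (exact permutation p = 0.6), and by -0.55 without the same library. Neither p shows that the groups are alike.

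**Figure D4:**
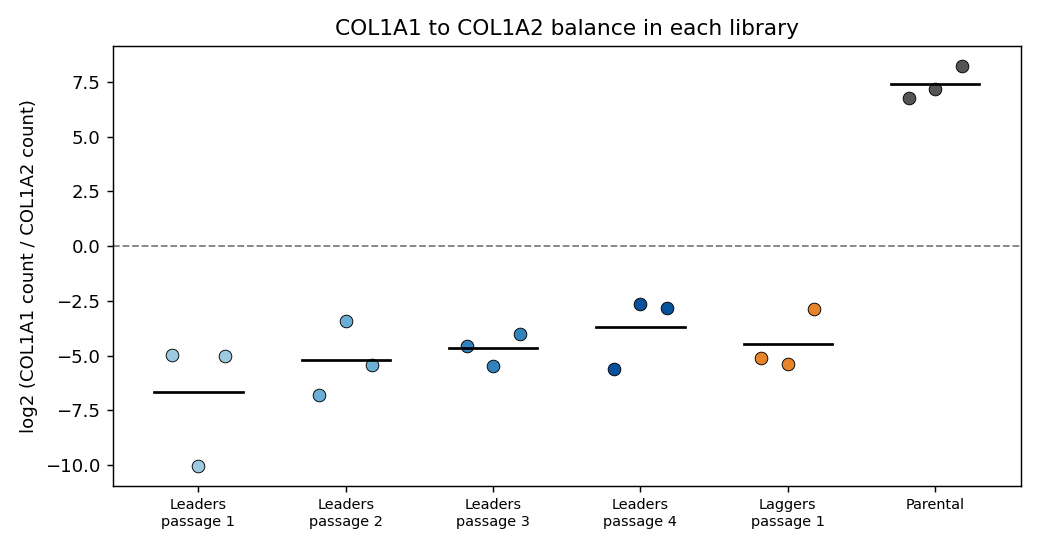
Log2 ratio of COL1A1 to COL1A2 counts in each library, with a point per library, a line at the group mean and a dashed line at equal counts. The injected libraries lie between -10.04 and -2.64 and the parental libraries between 6.78 and 8.24.

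COL3A1, the gene of type III collagen, which is found with type I in soft connective tissue, rose in every injected group as well. It had 1007, 558 and 1292 CPM in passage 1 leaders, 492, 761 and 351 in passage 2, 285, 723 and 687 in passage 3, 382, 298 and 175 in passage 4, 619, 849 and 1162 in laggers, and 6.42, 4.54 and 10.2 CPM in the parental line. The injected and parental libraries did not overlap. By edgeR the log2 fold change was 7.08 ± 0.551 in passage 1 leaders (135-fold, adjusted p = 2.67e-07), 6.25 ± 0.531 in passage 2, 6.33 ± 0.533 in passage 3, 5.34 ± 0.509 in passage 4 (40.4-fold, adjusted p = 3.53e-06) and 6.96 ± 0.548 in laggers. The ratio of COL3A1 to COL1A2 varied little over most injected libraries: the log2 ratio of their counts was 0.33 to 0.43 in passage 1 leaders, 0.16 to 0.29 in passage 2, 0.29 to 0.77 in passage 3 and 0.04 to 1.04 in laggers. It was 1.92 to 2.24 in passage 4 leaders and 2.37 to 3.69 in the parental line. The passage 4 libraries thus lay apart from the 12 other injected ones in this ratio, a description with no test.

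COL5A2, which encodes a type V chain and is known to help start fibrils, lies next to COL3A1 on chromosome 2, 19150 bases away in GENCODE 29, but did not follow it. It had 1054, 824 and 943 CPM in passage 1 leaders, 862, 1028 and 806 in passage 2, 568, 835 and 732 in passage 3, 565, 289 and 311 in passage 4, 1299, 1071 and 983 in laggers, and 1115, 1175 and 1300 CPM in the parental line. All leader libraries lay below the lowest parental one, and the laggers overlapped the parental range. COL5A2 fell by 0.75 ± 0.228 on the log2 scale in passage 3 (edgeR adjusted p = 0.0245) and by 1.62 ± 0.232 in passage 4 (adjusted p = 0.000125). Its log2 fold change was -0.35 ± 0.227 in passage 1 leaders, -0.41 ± 0.227 in passage 2 and -0.10 ± 0.226 in laggers, which did not pass. The passage 3 call was lost without parental replicate 2 or 3 or passage 3 replicate 1 or 3, with adjusted p up to 0.117. COL3A1 was compared with COL5A2 as a pair after the values were seen: the log2 ratio of their counts was -1.20 to 0.45 in injected libraries and -8.01 to -6.99 in parental ones.

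COL5A1, the other type V chain measured, was far below COL5A2. It had 16.3, 19.2 and 18.02 CPM in passage 1 leaders, 6.11, 14.5 and 3.87 in passage 2, 3.60, 9.44 and 5.62 in passage 3, 5.72, 4.91 and 6.57 in passage 4, 12.4, 6.18 and 30.0 in laggers, and 12.9, 15.6 and 35.7 CPM in the parental line. Passage 3 and 4 leaders lay below all parental libraries, and laggers and passage 1 leaders overlapped them. COL5A1 fell by 1.78 ± 0.567 on the log2 scale in passage 3 (edgeR adjusted p = 0.0305) and by 1.90 ± 0.568 in passage 4 (adjusted p = 0.0206). Both calls were lost without parental replicate 3, the highest library, and each without 2 libraries of its own group, with adjusted p up to 0.173 and 0.124.

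The other fibrillar chain genes were low. COL24A1 had 0.491, 0.375 and 0 CPM in passage 4 leaders and 2.26, 5.49 and 2.85 CPM in the parental line, fell by 3.63 ± 0.919 on the log2 scale (edgeR adjusted p = 0.0082), and was not called in the other injected groups, with 0.525 to 3.38 CPM. COL27A1 had 2.82, 2.25 and 3.02 CPM in passage 2 leaders, 1.33, 4.32 and 3.21 in passage 3 and 8.06, 6.59 and 12.7 in the parental line. It fell by 1.75 ± 0.546 in passage 2 (adjusted p = 0.0239) and by 1.62 ± 0.544 in passage 3 (adjusted p = 0.0393). COL11A2, a chain of cartilage collagen, fell by 3.37 ± 1.10 in passage 2 (adjusted p = 0.0291), with 0.0369 to 0.656 CPM there and 1.66 to 4.96 CPM in the parental line. The COL27A1 and COL11A2 calls were each lost when some single libraries were left out, parental replicate 3 among them, with adjusted p up to 0.157 and 0.109. COL2A1 and COL11A1 were too low to test, with at most 11 and 31 counts in a library.

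Of the type IV genes, COL4A1 and COL4A2 encode the common chains of basement membranes and are known to be transcribed in opposite directions from 1 shared promoter on chromosome 13. COL4A2 (ENSG00000134871.13), the highest chain gene of the network class, had 37.2, 23.3 and 36.5 CPM in passage 1 leaders, 55.3, 61.3 and 39.3 in passage 2, 37.6, 68.9 and 48.4 in passage 3, 38.9, 27.1 and 51.3 in passage 4, 31.9, 47.7 and 55.4 in laggers, and 103, 100.8 and 169 CPM in the parental line. Every injected library was below every parental one. COL4A2 fell by 1.94 ± 0.322 on the log2 scale in passage 1 leaders (edgeR adjusted p = 0.000181), by 1.26 ± 0.315 in passage 2, by 1.27 ± 0.315 in passage 3, by 1.67 ± 0.319 in passage 4 (adjusted p = 0.00124) and by 1.47 ± 0.317 in laggers (adjusted p = 0.00188). COL4A1 had 13.95, 43.0 and 20.4 CPM in passage 1 leaders, 24.9, 24.3 and 11.5 in passage 2, 11.1, 17.5 and 15 in passage 3, 11.2, 11.8 and 12.4 in passage 4, 24.0, 10.4 and 33.3 in laggers, and 35.0, 38.0 and 46.2 CPM in the parental line. It fell by 1.45 ± 0.425 in passage 3 (adjusted p = 0.0205, up to 0.0909 without parental replicate 3 or passage 3 replicate 1 or 3) and by 1.75 ± 0.429 in passage 4 (adjusted p = 0.00681), and passage 1 leader replicate 2 alone reached the parental range. The log2 ratio of COL4A1 to COL4A2 counts ran from -2.19 to 0.88 in injected libraries and from -1.87 to -1.41 in parental ones.

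The stretch between the starts of COL4A1 and COL4A2, which are 127 bases apart, is shown because the pair shares it. It is 126 bases at chr13:110307158-110307283 of GRCh38.p14, plus strand, from RefSeq, with capitals marking a CCAAT box and a GC box, the motifs found there of 4 searched on both strands (the CCAAT box as CCAAT, the box for SP factors, or GC box, as GGGCGG, the TATA box as TATAAA and the AP-1 site as TGANTCA).
COL4A1 to COL4A2 interval: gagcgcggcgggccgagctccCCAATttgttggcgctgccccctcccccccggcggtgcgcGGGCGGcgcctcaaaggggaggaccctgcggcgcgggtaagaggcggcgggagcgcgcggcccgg
Among 35116 RefSeq promoter windows of 250 bases, which are longer than this stretch, CCAAT was found in 32.0%, GGGCGG in 42.6%, TATAAA in 10.7% and TGANTCA in 6.57%. Of the 44 chain genes, 32 had a promoter entry.

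COL4A4, a chain of the specialised basement membrane of the kidney glomerulus, rose in every injected group but at very low levels. It gave 98 counts in passage 1 leaders, 76 in passage 2, 29 in passage 3, 36 in passage 4 and 56 in laggers, against 2 counts in all 3 parental libraries. The ratio of levels to the parental line, with its 95% interval for counting error, was 73.0 (19.7 to 611) in passage 1, 58.3 (15.6 to 490) in passage 2, 23.0 (5.82 to 199) in passage 3, 25 (6.43 to 214) in passage 4 and 52.9 (14 to 448) in laggers. EdgeR's adjusted p was 0.00374, 0.0103, 0.0425, 0.0333 and 0.00671 in the same order. With 2 parental counts, COL4A4 passed the filter on low counts only through the injected groups, so these p-values are not independent support for a rise. Without the highest library of each group the ratio was 56.0, 32.7, 20.6, 10.8 and 26.6, and the passage 3 and 4 calls were lost under limma-voom and without parental replicate 1 or 3 among others, with adjusted p up to 0.13 and 0.173. The lagger call was lost under limma-voom, at 0.121. COL4A4 was at 0 CPM in 1 of 3 laggers and at 2.45 CPM in another. The lowest passage 4 library, at 0.0416 CPM, also lay within the parental range of 0 to 0.0511 CPM. COL4A5 had 0 counts in the parental line and 0 to 1.19 CPM in injected libraries and did not pass in any comparison with it, and COL4A3, COL4A6, COL8A1, COL8A2 and COL10A1 were too low to test, with at most 29 counts in a library.

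The type VI genes COL6A1 and COL6A2, neighbours on chromosome 21 whose products join in beaded filaments around cells, were abundant. They were not called in any of the 8 comparisons in the main edgeR fit. COL6A1 had 227, 226 and 248 CPM in passage 1 leaders, 204, 198 and 190.3 in passage 2, 107, 236 and 142 in passage 3, 150.1, 111 and 141 in passage 4, 173, 309.7 and 415 in laggers, and 169, 158 and 303 CPM in the parental line. Every injected group but passage 4 overlapped the parental range. Its log2 fold change over the parental line was 0.15 ± 0.315 in passage 1 leaders and -0.65 ± 0.317 in passage 4 (edgeR adjusted p = 0.14). COL6A1 averaged 234, 198, 162 and 134 CPM in leaders of passages 1 to 4, and passages 1 and 4 did not overlap. Passage 4 was called lower than passage 1 by DESeq2 (adjusted p = 0.0495). EdgeR called it with only those groups (adjusted p = 0.00929) and without the 2 libraries with the most unaligned reads (0.0252). The trend was called under some alternatives too. The log2 ratio of COL6A1 to COL6A2 counts stayed between -0.46 and 0.41 over all 18 libraries, a range of 0.872, where the range of the COL1A1 to COL1A2 ratio was 18.3. COL6A3, the gene of the chain that completes the usual type VI molecule, was close to 0: it had 0 counts in all libraries of passage 1 and 2 leaders, at most 2.24 CPM elsewhere, and no call. COL6A5 and COL6A6 had at most 4 counts in a library.

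COL17A1, the transmembrane collagen of hemidesmosomes (ENSG00000065618.12, chromosome 10), was low at passage 1 and overlapped the parental level from passage 3 on. It had 12.1, 9.99 and 5.56 CPM in passage 1 leaders, 33.1, 68.3 and 53.1 in passage 2, 96.3, 116 and 94.6 in passage 3, 121, 108 and 123 in passage 4, 12.0, 7.95 and 32.4 in laggers, and 112, 98.4 and 182 CPM in the parental line. Passage 1 and 2 leaders and laggers lay wholly below the parental line, and passages 3 and 4 overlapped it. COL17A1 fell by 3.83 ± 0.466 on the log2 scale in passage 1 leaders (14.2-fold, edgeR adjusted p = 1.38e-05), by 1.35 ± 0.421 in passage 2 (adjusted p = 0.0242) and by 2.92 ± 0.447 in laggers (adjusted p = 0.000131). The passage 2 call was lost without parental replicate 3 or passage 2 replicate 1 or 3, with adjusted p up to 0.118. In passage 3 and 4 leaders its log2 fold change was -0.36 ± 0.414 and -0.16 ± 0.413, which did not pass.

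COL18A1, a basement membrane collagen whose end fragment is endostatin (ENSG00000182871.10, chromosome 21), fell in every injected group. It had 38.7, 17.6 and 44.1 CPM in passage 1 leaders, 45.7, 63.2 and 57.0 in passage 2, 82.5, 109 and 82.5 in passage 3, 198, 78.4 and 58.5 in passage 4, 14.2, 27.3 and 47.3 in laggers, and 218, 237 and 487 CPM in the parental line. All injected libraries were below all parental ones, with passage 4 replicate 1 the nearest. COL18A1 fell by 3.23 ± 0.518 on the log2 scale in passage 1 leaders (edgeR adjusted p = 0.000138), by 2.5 ± 0.502 in passage 2, by 1.78 ± 0.489 in passage 3 (adjusted p = 0.0143), by 1.49 ± 0.484 in passage 4 (adjusted p = 0.0307) and by 3.41 ± 0.523 in laggers (adjusted p = 0.000132). The passage 3 and 4 calls were lost without parental replicate 3 and without each of 2 libraries of their own group, and the passage 4 call also when only those groups were fitted, with adjusted p up to 0.0851 and 0.166. COL18A1 shares 1401 exon bases with SLC19A1 on the other strand, and the kit does not mark strand, so reads there cannot be told apart.

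The 250 bases before the starts of COL17A1 and COL18A1 are shown because their levels were lowest at passage 1 and higher later. They come from RefSeq for GRCh38.p14, on the strand of the gene, with the same 4 motifs in capitals on either strand and overlapping matches joined. The COL17A1 window is chr10:104085881-104086130 on the minus strand, and the COL18A1 windows are chr21:45404915-45405164 and chr21:45455272-45455521 on the plus strand.
COL17A1: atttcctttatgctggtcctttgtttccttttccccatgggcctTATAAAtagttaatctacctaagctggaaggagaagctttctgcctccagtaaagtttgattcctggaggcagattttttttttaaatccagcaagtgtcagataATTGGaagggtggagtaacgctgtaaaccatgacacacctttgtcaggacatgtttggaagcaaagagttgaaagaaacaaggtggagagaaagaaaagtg
COL18A1 first start: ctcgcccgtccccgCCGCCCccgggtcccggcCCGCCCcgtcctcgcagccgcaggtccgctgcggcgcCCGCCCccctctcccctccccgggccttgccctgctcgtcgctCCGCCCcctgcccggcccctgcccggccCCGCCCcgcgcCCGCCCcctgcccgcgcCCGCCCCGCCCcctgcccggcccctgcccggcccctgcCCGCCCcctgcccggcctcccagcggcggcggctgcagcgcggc
COL18A1 second start: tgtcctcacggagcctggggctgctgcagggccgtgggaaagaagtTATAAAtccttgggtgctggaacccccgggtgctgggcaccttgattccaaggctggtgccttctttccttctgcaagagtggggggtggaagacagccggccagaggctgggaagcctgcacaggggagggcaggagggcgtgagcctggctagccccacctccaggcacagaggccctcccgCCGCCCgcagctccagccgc
The COL17A1 window holds 1 TATAAA, 1 CCAAT read on the other strand and 1 CpG, where the median of all windows is 11 CpG. The first COL18A1 window holds 9 GC boxes and 37 CpG, and the second holds 1 TATAAA, 1 GC box and 9 CpG. Gene counts do not show which COL18A1 start was used.

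COL13A1, another transmembrane collagen, known at the neuromuscular junction, fell in laggers by 4.37 ± 1.47 on the log2 scale (edgeR adjusted p = 0.0263). It had 0, 0.335 and 0 CPM in laggers and 1.67, 2.43 and 3.63 CPM in the parental line. Passage 1 and 2 leaders, at 0.0736 to 0.830 and 0 to 0.737 CPM, also lay below the parental line but were not called. With only the compared groups fitted, edgeR called COL13A1 lower in both (adjusted p = 0.0342 and 0.0288). Passage 3 and 4 leaders overlapped the parental range, with 0.16 to 2.32 and 0.0991 to 3.53 CPM. The lagger call was lost without lagger replicate 1 or 3 or parental replicate 3, with adjusted p up to 0.0788. COL26A1, of the unclassed chains, had 11.3, 10.2 and 6.86 CPM in passage 2 leaders, 4.76, 14.7 and 10.2 in passage 3 and 2.94, 2.88 and 4.25 CPM in the parental line. Both passages lay above the parental line, and COL26A1 rose by 1.49 ± 0.521 on the log2 scale in passage 2 (adjusted p = 0.0399) and by 1.56 ± 0.521 in passage 3 (adjusted p = 0.0386). Those calls were lost without any 1 of the 6 libraries in passage 2, and without any parental library or passage 3 replicate 2 or 3, or the 2 libraries with the most unaligned reads, in passage 3, with adjusted p up to 0.115 and 0.129.

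The remaining classes were near the floor of detection. COL7A1, the chain of the anchoring fibrils below epithelia, had 0 to 1.73 CPM in leaders, 0.992, 0.910 and 4.34 CPM in laggers and 0.448, 0.817 and 2.48 CPM in the parental line, and was not called. COL16A1, a FACIT gene (FACIT chains sit on the surface of fibrils), had 0 to 1.21 CPM in leaders, 0, 0.383 and 3.50 CPM in laggers and 1.219, 0.791 and 1.81 CPM in the parental line, and was not called. COL9A2, the other FACIT gene tested, reached 2.24 CPM in laggers and was not called against the parental line. Of the 22 untested genes, none exceeded 31 counts in any library. COL12A1 and COL14A1, FACIT genes known from fibroblasts, had 2 and 5 counts over all 18 libraries.

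Passage 4 leaders were compared with passage 1 leaders to read what changed over the serial passages. Of the 22 genes 5 were called, 2 higher and 3 lower, where 20.0% of all tested genes were called (10.8% higher and 9.17% lower). The median log2 fold change of the 22 was -0.96, and that of all tested genes -0.02. COL17A1 rose by 3.67 ± 0.463 on the log2 scale (12.7-fold, edgeR adjusted p = 9.2e-05), with 117 ± 8.07 CPM at passage 4 and 9.21 ± 3.32 at passage 1 (SD, n = 3 each). COL18A1 rose by 1.74 ± 0.490 (adjusted p = 0.0205), with 111 ± 75.3 CPM at passage 4 and 33.4 ± 14 at passage 1, and this call was lost without passage 4 replicate 1 (adjusted p = 0.137) or passage 1 replicate 2 (adjusted p = 0.0799). COL1A2 fell by 3.35 ± 0.432 (adjusted p = 0.000113), with 70.5 ± 30.2 CPM at passage 4 and 719 ± 260.0 at passage 1. COL3A1 fell by 1.74 ± 0.433 (adjusted p = 0.0104), with 285 ± 104 CPM at passage 4 and 952 ± 370.0 at passage 1, and its adjusted p was 0.0549 without passage 4 replicate 3. COL5A2 fell by 1.28 ± 0.230 (adjusted p = 0.00143), with 388 ± 153 CPM at passage 4 and 940.5 ± 115 at passage 1. In each of these 5 genes the 3 libraries of one passage lay wholly beyond those of the other. COL5A1 was called lower at passage 4 by DESeq2 (adjusted p = 0.0147), limma-voom (0.0437) and edgeR with RLE scaling (0.0468) among others. COL4A1, COL9A2, COL26A1 and COL27A1 were called lower by DESeq2 (adjusted p = 0.0321, 0.0378, 0.0402 and 0.0473). None of these genes was called in the main edgeR fit or under every alternative.

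A linear trend over the 4 leader passages called 6 of the 22 genes, 2 higher and 4 lower, where 21.1% of all tested genes were called (11.7% higher and 9.38% lower). COL17A1 rose by 1.20 ± 0.145 log2 units per passage (edgeR adjusted p = 5.35e-05) and COL18A1 by 0.59 ± 0.155 (adjusted p = 0.013). COL1A2 fell by 1.03 ± 0.134 per passage, COL3A1 by 0.51 ± 0.136, COL5A2 by 0.42 ± 0.0726 and COL5A1 by 0.53 ± 0.178 (adjusted p = 0.0444). The decline was not even: COL1A2 averaged 719, 455, 391 and 70.5 CPM at passages 1, 2, 3 and 4. The COL5A1 trend was lost without any of 9 single libraries, with adjusted p up to 0.109, and the COL3A1 and COL18A1 trends without 2 each, with adjusted p up to 0.0613 and 0.0795.

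**Figure D5:**
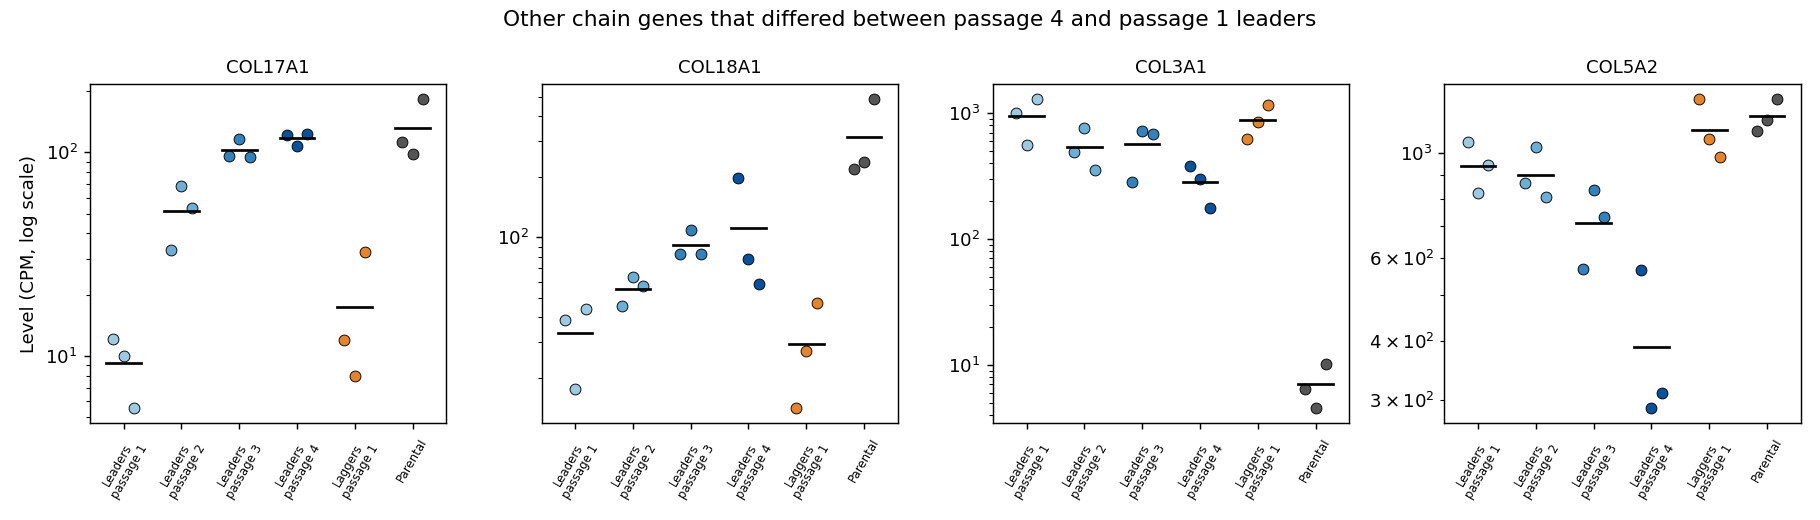
Levels of COL17A1, COL18A1, COL3A1 and COL5A2 in each library, in CPM on a log scale that differs between panels, with a point per library and a line at the group mean. COL17A1 climbs from passage to passage and reaches 108 to 123 CPM in passage 4 leaders, while COL5A2 is lowest there, at 289 to 565 CPM.

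Passage 1 leaders were compared with the laggers recovered at the same passage. None of the 22 genes was called by edgeR, DESeq2 or limma-voom, where edgeR called 0.0618% of all tested genes (0.0185% higher and 0.0432% lower), and 2 of the 22 had an unadjusted edgeR p under 0.05. Those 2 were COL6A3, with 0 counts in the leaders and a single lagger library at 2.24 CPM, and COL17A1, with a log2 fold change of -0.91 ± 0.427 (adjusted p = 0.344). COL1A2 differed by 0.20 ± 0.394 and COL3A1 by 0.12 ± 0.421, with 95% intervals from -0.64 to 1.03 and from -0.77 to 1.01.

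Genes that act on collagens were counted by the step they serve. Over all tested genes 23.2%, 15.1%, 13.8% and 14.8% were higher in leaders of passages 1 to 4 against the parental line and 21.5% in laggers, and 22.4%, 14.8%, 10.8% and 12.9% were lower in those leaders and 17.8% in laggers. Of 23 genes for chain modification, folding and export, 22 were tested. In leaders of passages 1 to 4 against the parental line 5, 5, 3 and 4 were higher and 3, 1, 1 and 1 lower, and in laggers 4 were higher and 2 lower, with medians of 0.11, 0.22, 0.02, -0.18 and 0.00 on the log2 scale. PPIB, a prolyl isomerase of the endoplasmic reticulum, rose in all 5 groups, to 276 ± 8.75 CPM in passage 1 leaders against 113 ± 13.5 CPM in the parental line. LEPREL1, a prolyl 3-hydroxylase, rose in all 5, to 169 ± 28.9 CPM in passage 2 leaders against 29.9 ± 2.40 in the parental line. CREB3L1, a transcription factor known to activate type I collagen genes in bone cells of mice, fell in all 5, to 9.88 ± 1.83 CPM in passage 1 leaders against 120 ± 61.4 in the parental line.

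Of 13 genes for procollagen cleavage and cross-linking, 9 were tested, and in leaders of passages 1 to 4 2, 2, 1 and 0 were higher and 1 each lower, and in laggers 2 were higher and 1 lower, with medians of -0.27, -0.38, 0.01, 0.07 and 0.06. LOXL2, a lysyl oxidase that cross-links collagen, was the lower one in all 5 groups, with 218 ± 102 CPM in passage 1 leaders, 339 ± 52.1 in passage 4 and 867 ± 152 in the parental line. Of 10 collagen receptor genes 7 were tested, and 3, 3, 3 and 5 were higher in leaders of passages 1 to 4 and 3 in laggers, beside 13.8% to 23.2% of all tested genes, with none lower and medians of 0.56, 0.90, 1.93, 2.30 and 1.61. DDR1, a receptor tyrosine kinase for collagen, rose in all 5, to 235 ± 32.2 CPM in passage 2 leaders against 35.9 ± 8.27 in the parental line. ITGA11, an integrin subunit for fibrillar collagen, rose in all 5 but averaged at most 1.53 CPM. ITGA11 and ITGA2, both counted as higher, had 2 and 5 counts in the parental line. They passed the filter on low counts only through injected groups, so their calls are not independent support for a rise.

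Of 12 genes for matrix proteins that bind collagen 8 were tested, and 4, 4, 2 and 3 were higher in leaders of passages 1 to 4 and 5 in laggers, with none lower. The medians were 3.11, 3.28, 2.40, 1.62 and 4.64, and 4.31, 3.82, 2.08, 1.62 and 4.64 with genes of 3 or fewer counts in a group set to the ratio of their summed counts or left out. FN1, the fibronectin gene, averaged 129 ± 101, 1928 ± 813, 1647 ± 917 and 206 ± 24.8 CPM in leaders of passages 1 to 4, 87.9 ± 84.3 in laggers and 0.834 ± 0.463 in the parental line. SPARC, a collagen-binding matrix protein, averaged 285 ± 149, 641 ± 226, 418 ± 89.2 and 723 ± 777 CPM in leaders of passages 1 to 4, 189 ± 186 in laggers and 14.3 ± 1.55 in the parental line. Both rose in every injected group. DCN, LUM and TNC, counted as higher in some groups, passed the filter on low counts only through injected groups. Their calls are not independent support for a rise.

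Markers of other cell types were read beside these results, since COL1A2 and COL3A1 are also genes of fibroblasts. In bulk RNA fewer cells of a type and less RNA per cell cannot be told apart. The 10 fibroblast markers summed to 26.2 to 182 CPM in injected libraries and 80.5 to 141 CPM in parental ones. FBLN1 averaged 46.8 to 85.3 CPM in the injected groups and 101 ± 32.5 CPM in the parental line. FAP, THY1, DPT, PI16 and TCF21 averaged under 1 CPM in every group. DCN averaged 4.09 ± 3.08 CPM in passage 1 leaders and 9.40 ± 3.85 in laggers, at most 0.148 in passage 2 to 4 leaders, and 0.187 in the parental line. LUM averaged 3.97 ± 2.34 in passage 1 leaders and 8.39 ± 7.75 in laggers, at most 0.849 in passage 2 to 4 leaders, and 0.118 in the parental line. PDGFRA averaged 10.0, 63.7, 57.3 and 13.9 CPM in leaders of passages 1 to 4, 2.53 in laggers and 0.112 in the parental line.

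The 10 Schwann cell markers summed to 33.0 to 91.3 CPM in injected libraries and 234 to 270 CPM in parental ones, with S100B and SOX10 under 1 CPM on average in every group. Most of the parental sum was MBP, which averaged 4.41 to 26.5 CPM in the injected groups and 214 ± 18.6 CPM in the parental line, and fell in all 5. EGR2 rose in all 5, with group means of 1.56 to 10.7 CPM in injected cells and 0.0415 CPM in the parental line. CDH19, with 0 counts in the parental line, rose in laggers and passage 1 leaders, to 1.20 and 1.31 CPM. ERBB3 fell in laggers, to 0.127 CPM against 6.20 in the parental line. The 7 perineurial and pericyte markers summed to 411 to 2050 CPM in injected libraries and 231 to 248 CPM in parental ones, with RGS5 and CSPG4 higher in all injected groups. RGS5 alone averaged 205 to 1077 CPM in the injected groups and 22.3 CPM in the parental line. CLDN1 went both ways, higher in passage 1 leaders and lower in passages 3 and 4 (209, 34.1 and 50.9 CPM, against 87.3 in the parental line). MYH11 was lower in passage 2 leaders, at 0.203 against 2.02 CPM. The 5 endothelial markers summed to 0.240 to 13.5 CPM in injected libraries and 2.52 to 5.23 CPM in parental ones. The 6 macrophage markers summed to 0.330 to 5.32 CPM in injected libraries and 0.613 to 1.63 CPM in parental ones. Within that sum PTPRC had 0 counts in laggers and the parental line and was higher in every leader passage, with means of 0.675 to 3.10 CPM. CD68 was lower in every leader passage, with means of 0.105 to 0.205 CPM against 0.731 in the parental line. EGR2, CDH19, CSPG4 and PTPRC had few or no parental counts and passed the filter on low counts only through injected groups. CD68 passed that filter through the parental line. Calls on these genes are thus not independent support for a rise or a fall. The part of the markers that moved, such as DCN, LUM, PDGFRA, MBP, EGR2, CDH19, RGS5, CSPG4, CLDN1, PTPRC and CD68, in the collagen values was not tested.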

How the data were processed

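Per the labels, cDNA came from the SMART-Seq v4 kit, whose libraries carry no strand information, and was read as 50-base pairs. The authors deposited raw counts per gene. The submitters' processing notes name HTSeq 0.5.3, STAR 2.5.0a, cutadapt 1.6 and DESeq 1.22.1. Build and annotation of the genome were not given in the sources used here. GENCODE 29 matched 51812 identifiers and all 44 chain genes. The 5 entries that name no gene took 27.6% to 60.6% of entries and were left out. Counts of replicates differed by more than sampling noise (chi-square per degree of freedom of 19.6 or more).

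EdgeR 4.0.16 in R 4.3.3 was fitted to all 18 libraries, with 1 mean per group, TMM scaling and the edgeR expression filter (16187 genes tested). Benjamini-Hochberg adjustment was made separately in each of 8 comparisons. The fit was tested on simulated data. The balance used exact permutation tests (SciPy 1.17.1), with 0.5 added to each count. Genes named in full were COL1A1, COL1A2, the called members with the 4 smallest adjusted p in each direction and the gene of highest mean CPM in each class; COL5A1, COL11A2 and COL9A2 were added. The members and lists were chosen with earlier results of these data known. Alternatives were RLE scaling, DESeq2 1.42.0, limma-voom (limma 3.58.1), no filter, only the compared groups, a replicate block, no mitochondrial genes, leaving out each library, and, added after seeing the data, leaving out the 2 libraries with the most unaligned reads. Lists were counted for chain synthesis and export, cross-linking, receptors, collagen-binding matrix, and markers of fibroblasts, Schwann cells, perineurial cells and pericytes, endothelium, macrophages and the carcinoma line. A result on a marker gene is not reported here. The 95% intervals cover counting error only where they are given for counts or shares.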

Additional observations from a re-analysis of the deposited data

Results flagged for a closer look

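Of the 22 tested chain genes, 5 changed against the parental line by different amounts at passage 4 and at passage 1, by the edgeR test of that difference, which is the comparison of passage 4 with passage 1 leaders (20.0% of all tested genes passed it). COL17A1 had the largest difference, 3.67 ± 0.463 on the log2 scale (adjusted p = 9.2e-05): its change from the parental line was -0.16 at passage 4 and -3.83 at passage 1. COL18A1 differed by 1.74 ± 0.490 (adjusted p = 0.0205), with -1.49 at passage 4 and -3.23 at passage 1. COL1A2 differed by -3.35 ± 0.432 (adjusted p = 0.000113), with 6.31 at passage 4 and 9.66 at passage 1. COL3A1 differed by -1.74 ± 0.433 (adjusted p = 0.0104), with 5.34 at passage 4 and 7.08 at passage 1. COL5A2 differed by -1.28 ± 0.230 (adjusted p = 0.00143), with -1.62 at passage 4 and -0.35 at passage 1. The mitochondrially encoded share of gene counts also differed between these passages, at 1.95% to 3.33% in passage 4 leaders and 5.60% to 8.57% in passage 1 leaders. In between, it was 3.36% to 3.90% at passage 2 and 2.73% to 3.38% at passage 3. The part of this share in the 5 differences was not tested. All 5 calls held in the fit that left the mitochondrial genes out. That fit changes only the genes counted and the scaling, so it cannot separate this share from passage.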

How the results depend on the processing

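The COL1A2, COL4A2 and COL3A1 calls against the parental line, and those of COL17A1, COL1A2 and COL5A2 between passage 4 and passage 1 leaders, held under every alternative run. Over single genes, 2394 of 2570 alternative values kept their side of the threshold, 91 lost a call, 85 gained one and no call changed direction; the cause was not tested. The number of chain genes called moved by more than 1.5 times in passage 1 leaders against the parental line with only the compared groups (11, against 7), in passage 2 leaders without a filter (17, against 9) and with limma-voom (14), and between passage 4 and passage 1 leaders without a filter (8, against 5), with only the compared groups (8), without the 2 libraries with the most unaligned reads (9) and with DESeq2 (11). Leaving out 1 library gave 6 to 7 called genes in passage 1 leaders, 5 to 11 in passage 2 (5 without passage 2 replicate 1 or 3, 6 without parental replicate 3), 3 to 8 in passage 3 (3 without parental replicate 3 or passage 3 replicate 3, 4 without passage 3 replicate 1), 7 to 10 in passage 4 and 7 to 8 in laggers. It gave 4 to 6 between passage 4 and passage 1, 4 to 8 for the trend and 0 for passage 1 leaders against laggers. The balance difference ran from -12.66 to -11.93 for injected against parental libraries, from 1.32 to 3.96 for passage 4 against passage 1 (1.32 without passage 1 replicate 2), and from -3.08 to -0.55 for passage 1 leaders against laggers (-0.55 without the same library).

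The replicate number as a block gave 6, 8, 10 and 8 called genes in leaders of passages 1 to 4 against the parental line, 7 in laggers, 5 between passage 4 and passage 1, 6 for the trend and 0 for leaders against laggers. Calls lost under it were COL1A1 in passage 1 (adjusted p = 0.0613), COL26A1 in passage 2 (0.0547), COL4A4 in passages 3 and 4 (0.0607 and 0.0518) and COL18A1 in passage 4 (0.0529), by edgeR. Numbers do not pair the samples: of 45 pairs of libraries with the same number 8 had deviations correlated above 0.1, the median was -0.0135, and 5 of 18 libraries correlated best with their own number. Genes with few counts, COL4A4 and the untested 22 among them, are limited by depth.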

Other observations

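Genes beside the chain genes were read for context, by their order in GENCODE 29, and each was chosen only by position. Over all tested genes 24.6% to 45.7% were called in the 5 injected groups against the parental line. Between passage 4 and passage 1 leaders the share was 20.0%. SLK, which lies 2053 bases from COL17A1, rose between passage 4 and passage 1 leaders by 1.81 on the log2 scale (edgeR adjusted p = 0.000537), OBFC1 on the same side by 1.95 (adjusted p = 9.11e-05) and SFR1 on the other side by 1.35 (adjusted p = 0.0376), while COL17A1 rose by 3.67. WDR96, the next gene beyond SFR1, differed by 0.49 (adjusted p = 0.56). ADARB1, beyond POFUT2 from COL18A1, fell against the parental line by 3.25, 2.46, 1.49 and 1.94 in leaders of passages 1 to 4 and by 2.20 in laggers, and POFUT2 between them was not called in any of these. SLC19A1, which overlaps COL18A1, fell in passage 1 leaders by 1.32 (edgeR adjusted p = 0.000845) and in passage 4 leaders by 0.78 (adjusted p = 0.0354). It was not called in the other injected groups. TMEM92, a neighbour of COL1A1, fell in all 5 injected groups, by 4.25 to 7.53, with 43 counts over the 15 injected libraries and 441 over the 3 parental ones. TMEM92 passed the filter on low counts through the parental line, so these calls are not independent support for a fall. Its fold changes rest on few injected counts. XYLT2, beyond TMEM92, fell only in passage 1 leaders of the 5 groups, by 1.20 (adjusted p = 0.00877). PPP1R9B, on the other side of COL1A1, was not called in any of them. Both genes nearest to COL1A2 had smaller changes than it: CASD1 was not called in any injected group, and BET1 rose only in passage 1 leaders of the 5 groups, by 1.57 (adjusted p = 0.0185). The next genes out did change: SGCE, beyond CASD1, rose by 4.36, 4.71, 5.32 and 5.81 in leaders of passages 1 to 4 and by 2.19 in laggers, with 4866 counts over the injected libraries and 44 over the parental ones. GNG11, beyond BET1, rose by 5.03 and 2.56 in passage 1 and 2 leaders and by 3.77 in laggers, and differed by 1.44 and 1.49 in passages 3 and 4 (adjusted p = 0.096 and 0.0772). GULP1, the second gene from COL3A1 on the side away from COL5A2, rose in all 5 groups, by 3.59 to 5.66, as did SLC40A1, the second gene from COL5A2 on its other side, by 1.89 to 3.79. WDR75, which lies between COL5A2 and SLC40A1, was not called in any of the 5 groups (edgeR adjusted p from 0.05855 to 0.5855).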
